A study of Mus musculus with 2 samples.

Results

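The cells described here are T lymphocytes of the MRL-lpr mouse kidney that carried transcripts of Trdc, the constant region gene of the T cell receptor delta chain. Members were chosen by transcript counts: a cell was taken when its barcode passed the quality limits (at least 200 genes and at most 20% mitochondrial transcripts), held at least 2 unique molecular identifiers (UMIs, each standing for 1 captured transcript) summed over the CD3 genes Cd3d, Cd3e and Cd3g, held at least 1 UMI of Trdc, and held none of the coreceptor genes Cd4 and Cd8b1. The young library gave 102 such cells of 11429 that passed the quality limits and the old library gave 89 of 10232, together 191 of 21661. They were expected to be gamma-delta T cells. Since the other marker genes bore this out for only some of them, as described with the receptor genes, they are called Trdc+CD3+ cells after the rule. Values of Trdc, the CD3 genes, Cd4 and Cd8b1 in them follow from the rule and are not results.

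Both groups were MRL-lpr mice, a strain that carries the lpr mutation of the death receptor gene Fas and develops lupus-like nephritis with age, so there was no Fas-intact group. Kidneys of young or of old mice were pooled, leukocytes were enriched on a density gradient, innate lymphoid cells were enriched with a magnetic kit, and live cells were sorted and captured for single-cell RNA sequencing at the 3′ end of transcripts. Each age was 1 pooled library, so no value has a replicate, no test between ages was possible, and age cannot be told apart from library. The enrichment decides which cells remain, and shares of cells are therefore not frequencies in the kidney.

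Gamma-delta T cells assemble their receptor from a gamma and a delta chain in place of the alpha and beta chains of conventional T cells, and most carry neither CD4 nor the CD8 beta chain. In mice, many are committed in the thymus either to an IL-17-producing (type 3) program or to an interferon-gamma-producing (type 1) program, and they settle early in barrier and other tissues. Mice have 4 gamma constant genes, each joined to its own set of variable genes, and the constant gene therefore tells broadly which variable genes a cell can have used.

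The gamma constant genes are printed first because the counts of Tcrg-C1 and Tcrg-C2 turn on how alike they are. In GRCm38 with the GENCODE M21 annotation, Tcrg-C1 (ENSMUSG00000076749) lies at chr13:19214103-19217024 on the plus strand, Tcrg-C2 (ENSMUSG00000076752) at chr13:19304649-19307551 on the minus strand and Tcrg-C4 (ENSMUSG00000076757) at chr13:19344558-19352756 on the plus strand, while Trdc (ENSMUSG00000104876) lies at chr14:54142851-54148868 on the plus strand. The first 120 bases of exon 1, coding for the start of the constant domain, are given 5′ to 3′ on the strand of each gene, at chr13:19214103-19214222 for Tcrg-C1, chr13:19307432-19307551 for Tcrg-C2 and chr13:19344558-19344677 for Tcrg-C4, with capitals at bases that differ from Tcrg-C1.
Tcrg-C1: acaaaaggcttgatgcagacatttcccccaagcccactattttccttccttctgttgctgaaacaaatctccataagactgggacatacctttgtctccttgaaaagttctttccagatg
Tcrg-C2: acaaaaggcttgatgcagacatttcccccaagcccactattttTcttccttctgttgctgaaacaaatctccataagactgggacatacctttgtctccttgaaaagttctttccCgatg
Tcrg-C4: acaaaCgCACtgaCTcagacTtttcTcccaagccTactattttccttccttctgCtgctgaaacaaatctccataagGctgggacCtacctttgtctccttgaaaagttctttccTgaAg
Over the 330 bases of exon 1, Tcrg-C1 and Tcrg-C2 were identical at 97.3% of positions, with 9 differences, whereas Tcrg-C1 and Tcrg-C4 were identical at 82.1%, with 59 differences.

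The genes differ more in the short exons that code for the connecting peptide below the constant domain, which are given here because they are where Tcrg-C1 and Tcrg-C2 are easiest to tell apart. Exon 2 is 45 bases at chr13:19215864-19215908 in Tcrg-C1 and 30 bases at chr13:19305769-19305798 in Tcrg-C2, and Tcrg-C4 has 54 bases at chr13:19349536-19349589 followed by an exon 3 of 45 bases at chr13:19350330-19350374.
Tcrg-C1 exon 2: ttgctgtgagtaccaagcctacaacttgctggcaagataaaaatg
Tcrg-C2 exon 2: ttgctacaacttgctggcaagataaaaatg
Tcrg-C4 exon 2: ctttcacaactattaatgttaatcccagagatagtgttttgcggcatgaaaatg
Tcrg-C4 exon 3: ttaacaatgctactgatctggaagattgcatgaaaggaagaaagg
The last exons of Tcrg-C1 and Tcrg-C2, from which 3′ reads mostly come, share runs of up to 104 bases, against 12 for Tcrg-C1 and Tcrg-C4. Reads in such a run cannot be assigned to one of the first pair, so how their UMIs split between Tcrg-C1 and Tcrg-C2 is uncertain, and both are also counted together below.

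The 2 libraries held 145647185 UMIs (young) and 119218130 UMIs (old) in the cells kept, with a median of 7881 and 6933 UMIs a cell. Trdc+CD3+ cells were of similar depth in both, at a median of 5220 UMIs and 2012 genes in young and 5915 UMIs and 2122 genes in old. They made up 11.5% of the CD3+ cells in the young library (95% interval 9.44 to 13.7, 102 of 890) and 2% in the old (1.61 to 2.46, 89 of 4450), but 0.892% and 0.870% of all cells kept, because the old library held more CD3+ cells of the other kinds. Shares carry exact Clopper-Pearson intervals, levels are UMIs per 1000000 UMIs of the same group of cells (CPM) with exact Poisson intervals, and log2 ratios carry exact binomial intervals. All of these cover counting error only, and since UMIs of 1 cell are not independent, the number of cells is given beside the level. Scrublet called 5 young and 2 old members doublets. The libraries shared 26 barcodes, none of which was a member's.

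The study's mice were female, but transcripts of the X-inactivation RNA Xist and of Y-linked genes were both found. Of the young members, 19 had Xist and no Y-linked UMI, 51 the reverse, 2 both and 30 neither. Of the old members, 45 had Xist and no Y-linked UMI, 28 the reverse, 5 both and 11 neither. The classes thus had different proportions in the 2 libraries. Values of both ages are also given within each class for Cd163l1, Eomes, Prf1 and Gzma, and within the Xist class for Gzmb and Areg. The other contrasts between ages are given without regard to class. Why both kinds of transcript were present was not tested.

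The edges of the rule are described once. Trdc stood at a median of 5 UMIs a cell in young (up to 66) and 7 in old (up to 42), and the CD3 genes at a median of 10 in both. Just inside it, 20 young and 12 old members had a single Trdc UMI, and 14 and 10 had 2 CD3 UMIs, of which 7 and 7 had the natural killer (NK) receptor gene Ncr1. Just outside it, 18 young and 26 old Trdc+ cells had 1 CD3 UMI, 108 and 94 had none, and 4 and 23 had a Cd4 or Cd8b1 UMI. Of those without CD3, 56 of 108 and 79 of 94 had Ncr1.

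**Figure D1:**
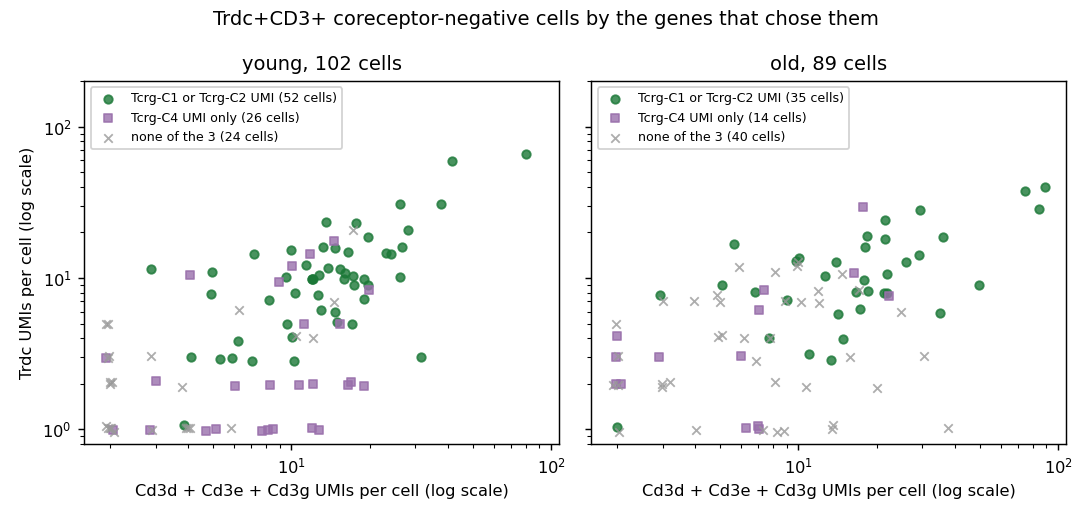
Each point is 1 Trdc+CD3+ cell, with its Trdc UMIs against its summed CD3 UMIs on log axes with slight jitter, in the young (102 cells) and the old library (89 cells), coloured by gamma constant genes. Cells with a Tcrg-C1 or Tcrg-C2 UMI (52 young, 35 old) lie mostly at high Trdc and CD3, and cells with none of the gamma constant genes (24 and 40) mostly at low Trdc.

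Gamma constant transcripts were found in 78 of 102 young members (76.5%, 67.0 to 84.3) and in 49 of 89 old members (55.1%, 44.1 to 65.6). In young, 26 members had Tcrg-C4 only, 11 Tcrg-C2 only and 4 Tcrg-C1 only, while 12 had Tcrg-C2 with Tcrg-C4, 9 Tcrg-C1 with Tcrg-C2, 5 Tcrg-C1 with Tcrg-C4, 11 all 3 of these and 24 none. In old, the same classes held 14, 6, 1, 13, 2, 2, 11 and 40 members. Gamma clusters are known to be transcribed also without a productive rearrangement, and a UMI of a constant gene does not show a receptor chain.

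Tcrg-C1 stood at 84.6 CPM in young members (65.3 to 108, 65 UMIs in 29 cells) and 73.8 CPM in old (55.1 to 96.8, 52 UMIs in 16 cells), a log2 ratio of old over young of −0.20 (−0.75 to 0.35). Tcrg-C2 stood at 126 CPM in young (102 to 154, 97 UMIs in 43 cells) and 142 CPM in old (116 to 173, 100 UMIs in 32 cells), a log2 ratio of 0.17 (−0.25 to 0.59). Tcrg-C4, the constant gene of the fourth cluster, stood at 189 CPM (159 to 222, 54 cells) and 177 CPM (148 to 211, 40 cells), a log2 ratio of −0.09 (−0.45 to 0.27). None of the 3 intervals left 0. Averaging each cell's own CPM, which weighs cells equally, gave −1.21 for Tcrg-C1 and −0.51 for Tcrg-C2, so in old the UMIs came from fewer cells with more UMIs each. Tcrg-C3, often a pseudogene in laboratory strains, had 2 UMIs in young and 0 in old.

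**Figure D2:**
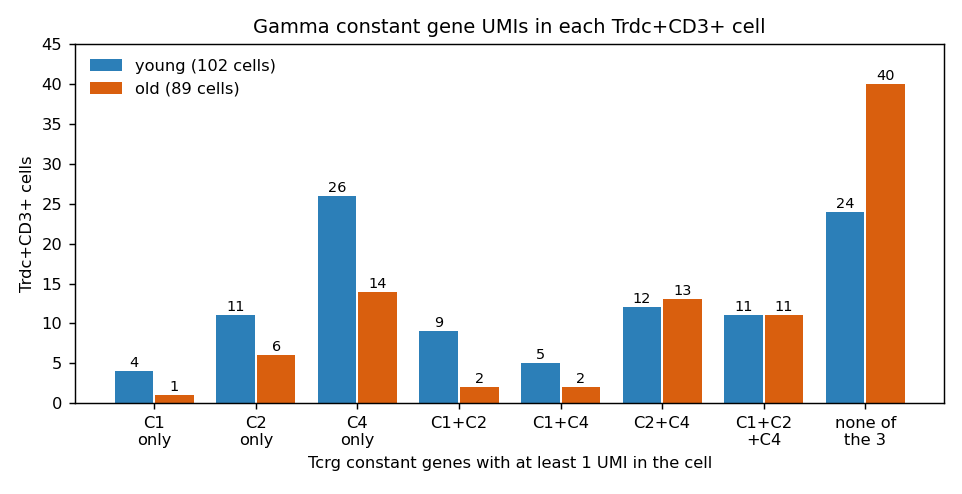
Bars give the number of Trdc+CD3+ cells by the combination of gamma constant genes with a UMI, in the young and the old library. The class with none holds 24 of 102 young and 40 of 89 old cells, and Tcrg-C4 alone is the largest class with 1 gene in both (26 and 14).

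Cells that should lack a T cell receptor gave the background for these counts. Tcrg-C1 or Tcrg-C2 had a UMI in 51.0% of young members (40.9 to 61.0) and 39.3% of old (29.1 to 50.3). The share was 3.06% and 1.69% in NK cells (CD3-negative cells with Ncr1 or Klrb1c, median 4811 and 6194 UMIs), 1.92% and 2.08% in cells with ILC2 genes (median 5368 and 5688 UMIs), and 0.0742% and 0.211% in proximal tubule cells (median 13310 and 14245 UMIs). Tcrg-C4 did not set the members apart in this way, with a UMI in 52.9% and 44.9% of members, 39.3% and 30.4% of NK cells, and 39.5% and 45.5% of cells with ILC2 genes. Trdc itself had a UMI in 22.7% of young and 31.6% of old NK cells. Since NK cells and innate lymphoid cells are known to carry germline Trdc and gamma transcripts, a member with few CD3 UMIs, an NK receptor and no Tcrg-C1 or Tcrg-C2 cannot be told apart here from an NK cell.

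The label fitted best where Trdc was plentiful. Among members with at least 5 Trdc UMIs, Tcrg-C1 or Tcrg-C2 was found in 43 of 56 young cells (76.8%, 63.6 to 87.0) and in 30 of 51 old cells (58.8%, 44.2 to 72.4). Among members with 1 Trdc UMI it was found in 1 of 20 and 1 of 12. Members with Ncr1 or Klrb1c, which encodes NK1.1, numbered 28 in young and 23 in old, and 10 and 9 of them had Tcrg-C1 or Tcrg-C2.

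Transcripts of the alpha chain constant gene Trac were the clearest difference between the ages among receptor genes. Trac stood at 16.9 CPM in young members (9.01 to 28.9, 13 UMIs in 10 cells) and 150 CPM in old (123 to 182, 106 UMIs in 44 cells), a log2 ratio of 3.15 (2.32 to 4.11). In CD3+ coreceptor-negative cells without Trdc it stood at 195 and 584 CPM, and Trac was also found in 7.15% of young and 16.4% of old proximal tubule cells. In old members the share was 49.4% (38.7 to 60.2) at less depth. Tcrg-C1 or Tcrg-C2 was found in 17 of 44 old members with Trac and in 18 of 45 without it, nearly the same share. What kind of T cell the 44 were was not tested.

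The beta chain constant genes were abundant in members of both ages. Trbc1 stood at 663 CPM (606 to 723, 71 cells) in young and 723 CPM (661 to 788, 66 cells) in old, and Trbc2 at 711 CPM (86 cells) and 855 CPM (81 cells). Trbc1 was also at 470 and 604 CPM in NK cells. Germline beta constant transcripts are known in both gamma-delta T cells and NK cells, so these genes did not separate the kinds of cell.

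Variable gene counts were low. Trgv2, a variable gene of the Tcrg-C2 cluster, was found in 19 young members (27 UMIs), 16 of which had Tcrg-C2, and in 16 old members (23 UMIs), 10 of which had Tcrg-C2. Tcrg-V1, of the Tcrg-C4 cluster, was found in 10 young members, 6 with Tcrg-C4 and 9 with Tcrg-C2, and in 9 old members, 8 with Tcrg-C4 and 6 with Tcrg-C2. Tcrg-V4, of the Tcrg-C1 cluster, was found in 5 members of each library, 2 of them with Tcrg-C1 in young and 4 in old. A variable gene was thus often counted in cells with a constant gene of another cluster. Tcrg-V6, used by fetal-derived IL-17-producing cells, had 1 UMI in 1 young cell and none in old. Tcrg-V5, used by skin epidermal cells, and Tcrg-V7, used by gut epithelial cells, had none in either. The delta variable gene Trdv4, known from fetal-derived gamma-delta cells, was found in 12 young and 3 old members (17 and 3 UMIs), a log2 ratio of −2.38 (−4.79 to −0.59). Of the 12 young cells, 7 also had Cd163l1.

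The ages were then compared across all genes with a mean of at least 50 CPM. Of 3296 genes tested, 123 (3.73%) were at least 2-fold higher and 231 (7.01%) at least 2-fold lower in old than in young members, and the median log2 ratio was 0.017. These counts describe 2 libraries and no gene is called changed. Genes of the lists below are set beside these shares. The lists were chosen with earlier results of these data known, so their counts are a description only.

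The type 3 list, genes of the IL-17 program and of tissue gamma-delta cells, differed most. Of its 28 genes 14 had enough counts, 10 were at least 2-fold lower in old, 1 was higher and 3 lay between, with a median log2 ratio of −1.60. Cd163l1, which encodes the scavenger receptor SCART1 of IL-17-committed gamma-delta T cells, stood at 259 CPM in young (224 to 298, 199 UMIs) and 24.1 CPM in old (14.1 to 38.6, 17 UMIs), a log2 ratio of −3.42 (−4.23 to −2.71). The young UMIs came from 22 cells (21.6%, 14.0 to 30.8) and all the old UMIs from 1 cell (1.12%, 0.0284 to 6.10). Proximal tubule cells had it in 0.0297% and 0.0302%, so the background of this gene was near 0. Within cells with Y-linked and no Xist UMIs the log2 ratio was −2.06 (13 of 51 and 1 of 28 cells), and within the reverse class 4 of 19 young cells and 0 of 45 old cells had Cd163l1.

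Further genes of the program followed the same direction. Actn2, an actinin gene found in these cells, stood at 100 CPM in young (26 cells) and 8.52 CPM in old (2 cells), a log2 ratio of −3.56 (−5.05 to −2.37). Ltb4r1, the leukotriene B4 receptor, stood at 107 CPM (32 cells) and 12.8 CPM (4 cells), a log2 ratio of −3.06 (−4.24 to −2.07). Podnl1, a small leucine-rich proteoglycan gene, stood at 135 CPM (47 cells) and 25.6 CPM (15 cells), a log2 ratio of −2.41. These genes were found in many young and few old members. Serpinb1a, a protease inhibitor that restrains IL-17-producing cells, had a log2 ratio of −2.26 (28 and 4 cells), and Ramp1, a subunit of the receptor for the neuropeptide CGRP, one of −1.91 (44 and 11 cells). Cxcr6, a chemokine receptor of tissue lymphocytes, stood at 367 CPM (66 cells) and 148 CPM (24 cells), a log2 ratio of −1.31 (−1.65 to −0.99). Tmem176a and Tmem176b, ion channel genes of type 3 cells, had log2 ratios of −1.66 and −1.54, but proximal tubule cells carried about 1000 CPM of each (1029 and 948 CPM for Tmem176a, 1145 and 1152 CPM for Tmem176b). The CD3+ coreceptor-negative cells without Trdc were also lower in old for Ltb4r1 (184 and 14.4 CPM), Actn2 (36.3 and 4.93 CPM) and Cd163l1 (25.3 and 0.088 CPM), and whether the members' contrast differs from theirs was not tested.

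Some genes of the program below the 50 CPM mean were in the same direction. Blk, a kinase needed for IL-17-producing gamma-delta cells, was found in 13 and 2 cells (43.0 and 19.9 CPM). Il1r1, the receptor of IL-1, was found in 20 cells and 1 cell (49.5 and 1.42 CPM), a log2 ratio of −5.12 with a wide interval (−10.46 to −2.56). Ccr6, a chemokine receptor of type 3 cells, was found in 12 young cells (52.1 CPM) and no old cell, which at a floor of 3 UMIs over the group is a log2 ratio of −3.61 or lower. Il17re, a receptor of IL-17C, was found in 14 young cells and no old cell, a log2 ratio of −2.54 or lower. Each of these genes was found in fewer old than young members, at similar depth.

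Some type 3 genes did not follow, among them Zbtb16, which lay below the 50 CPM mean and was not lower in old. Maf, a transcription factor of IL-17-producing cells also found in other T cells, stood at 260 and 187 CPM (47 and 43 cells), and Il7r, the IL-7 receptor, at 220 and 237 CPM. Sox4, a transcription factor, was higher in old by a log2 ratio of 1.33 (0.60 to 2.10), but from 6 and 8 cells, with 52.2% of the young UMIs in 1 cell. The cytokines themselves were almost not seen. Il17a, which encodes IL-17A, had 2 UMIs in 2 young members (1.96%, 0.238 to 6.90) and 1 UMI in 1 old member. All CD3+ cells of the young library held 126 Il17a UMIs in 13 cells. Members gave 1.59% of these UMIs but 2 of these 13 cells (15.4%), and they were 11.5% of the CD3+ cells. Il17f had 1 UMI in young, and Il22, a cytokine acting on epithelium, had 9 UMIs in 6 young cells and 0 in old, a log2 ratio of −1.46 or lower at the floor.

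**Figure D3:**
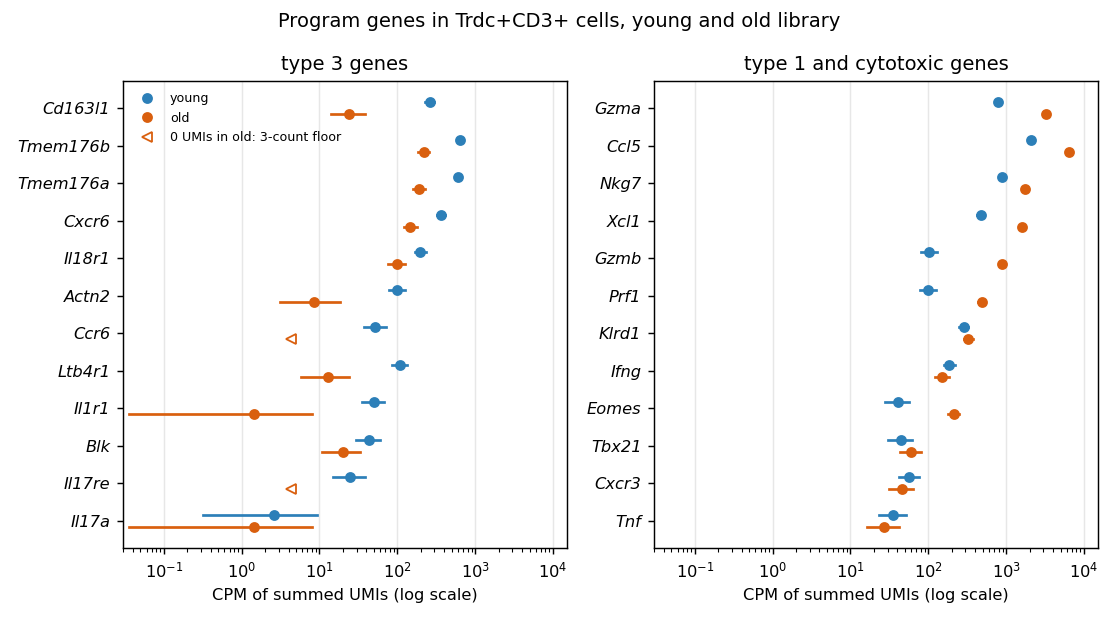
CPM in Trdc+CD3+ cells of the young and the old library with exact 95% Poisson intervals, on a log axis, for type 3 genes and for type 1 and cytotoxic genes; an open triangle marks a gene with 0 UMIs at its 3-UMI floor. The plotted type 3 genes other than Il17a lie lower in old (Cd163l1 259 and 24.1 CPM), whereas Gzma, Gzmb, Prf1 and Eomes lie higher in old (Gzmb 103 and 893 CPM) and Ifng and Tnf overlap.

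The type 1 and cytotoxic list lay the other way. Of its 26 genes 23 had enough counts, 9 were at least 2-fold higher in old, none was 2-fold lower and 14 lay between, with a median log2 ratio of 0.59. Ifng, which encodes interferon-gamma, was among those between, at 186 CPM in young (157 to 219, 143 UMIs in 38 cells) and 150 CPM in old (123 to 182, 106 UMIs in 30 cells), a log2 ratio of −0.31 (−0.68 to 0.07). Its share of cells was 37.3% (27.9 to 47.4) and 33.7% (24.0 to 44.5), against 0.178% and 1.48% of proximal tubule cells. Tnf, which encodes tumour necrosis factor, stood at 35.2 and 27.0 CPM (17 and 13 cells). The ages thus differed in both cytokine genes by less than counting error.

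Transcription factors of the program split. Tbx21, which encodes T-bet, was found in 28 young and 26 old members (44.3 and 59.6 CPM), a log2 ratio of 0.43 (−0.26 to 1.13). Eomes, its relative, stood at 40.4 CPM in young (27.4 to 57.3, 16 cells) and 213 CPM in old (180 to 250, 51 cells), a log2 ratio of 2.40 (1.83 to 3.01). Most old members and few young members thus had an Eomes UMI, and the log2 ratio was 3.97 within cells with Xist and no Y-linked UMI and 1.82 within the reverse class. Eomes was also high in old CD3+ coreceptor-negative cells without Trdc, at 370 CPM against 9.16 CPM in young.

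Granule genes were higher in the old library. Gzmb, which encodes granzyme B, stood at 103 CPM in young (14 cells) and 893 CPM in old (28 cells), a log2 ratio of 3.12 (2.78 to 3.47). Prf1, which encodes perforin, stood at 98.9 CPM (27 cells) and 484 CPM (49 cells), a log2 ratio of 2.29 (1.93 to 2.67). Gzma, which encodes granzyme A, stood at 792 CPM (18 cells) and 3259 CPM (19 cells), a log2 ratio of 2.04 (1.91 to 2.17), so a like number of cells held more UMIs each. Within cells with Xist and no Y-linked UMI the log2 ratios were 4.58 for Gzmb, 4.32 for Prf1 and 1.29 for Gzma. Within the reverse class they were 2.66 for Prf1 and 2.71 for Gzma. CD3+ coreceptor-negative cells without Trdc had 32.4 and 192 CPM of Gzmb and 28.7 and 113 CPM of Prf1. Their Gzma was lower in old, at 215 and 83.6 CPM. NK cells had 501 and 1377 CPM of Gzmb and 586 and 1589 CPM of Prf1. Whether the members' contrasts differ from these was not tested.

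Among chemokine genes, Ccl5 and Xcl1 were higher in old, while Ccl3 (303 and 224 CPM) and Ccl4 (656 and 987 CPM) lay below 2-fold. Ccl5 stood at 2066 CPM (50 cells) in young and 6445 CPM (52 cells) in old, a log2 ratio of 1.64 (1.56 to 1.72). Xcl1, a chemokine for cross-presenting dendritic cells, stood at 471 CPM (39 cells) and 1615 CPM (31 cells), but 35.3% of the old UMIs came from 1 cell. Cd27, a costimulatory receptor that marks interferon-gamma-committed gamma-delta cells, was found in 31 young members (74.2 CPM) and 58 old members (210 CPM), with an interval of the log2 ratio of 1.05 to 1.97. The receptor Klrd1, at 284 and 328 CPM, and the granule membrane gene Nkg7, at 892 and 1767 CPM, lay below 2-fold.

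Most Gzma came from the members with NK receptors. In young, the 28 members with Ncr1 or Klrb1c held 578 of 608 Gzma UMIs, in 13 cells, and the other 74 held 30, in 5 cells. In old, the 23 with an NK receptor held 2290 of 2296, in 14 cells, and the other 66 held 6, in 5 cells. Gzma thus stood at 3543 against 49.6 CPM in young and at 10245 against 12.5 CPM in old. Without the cells that had Ncr1 or Klrb1c the log2 ratio of old over young for Gzma was −1.99, that for Gzmb was 3.35 and that for Prf1 was 1.88.

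Gzmb and Prf1 also stood higher in members with these receptors, and Eomes in old did not go with them. Old members without Ncr1 or Klrb1c had Gzmb in 12 of 66 cells (320 CPM), against 2125 CPM with a receptor, and the young ones had 31.4 and 368 CPM. Prf1 stood at 85.3 CPM without and 1342 CPM with a receptor in old, and at 23.1 and 380 CPM in young. Eomes in old was as frequent without the receptors, in 40 of 66 cells (60.6%, 47.8 to 72.4), as with them, in 11 of 23 (47.8%, 26.8 to 69.4). Ifng in young was more frequent with the receptors, in 17 of 28 cells (60.7%, 40.6 to 78.5) against 21 of 74 (28.4%, 18.5 to 40.1), and in old it was in 11 of 23 and 19 of 66. NK cells themselves had 4381 and 11285 CPM of Gzma and 241 and 283 CPM of Ifng.

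**Figure D4:**
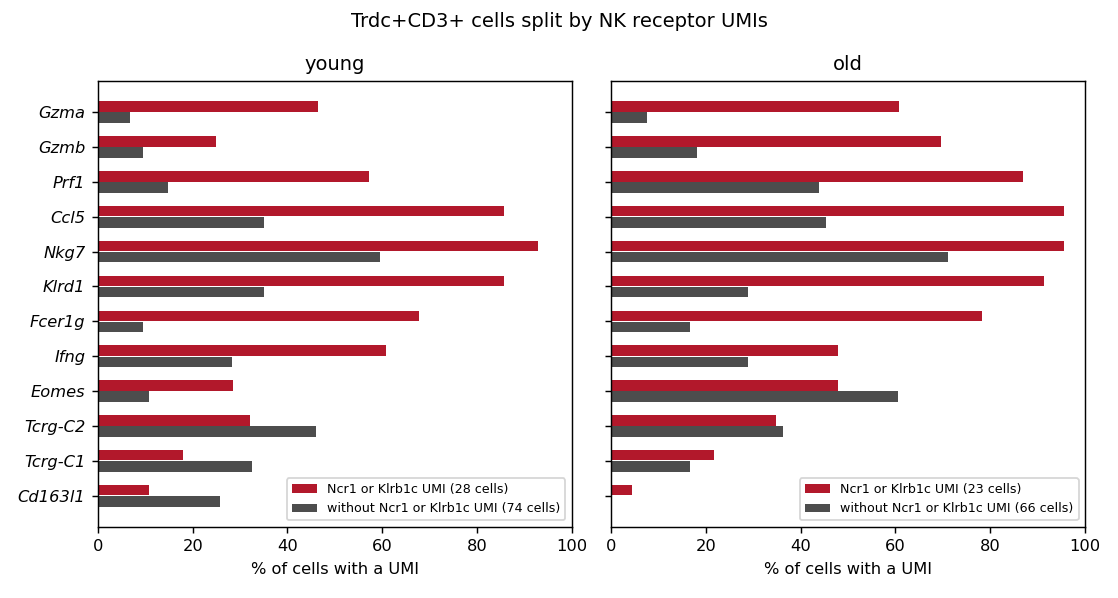
Percent of Trdc+CD3+ cells with a UMI of each gene, split into cells with (28 young, 23 old) and without (74 young, 66 old) an Ncr1 or Klrb1c UMI. Gzma is found mostly in cells with the receptors (46.4% against 6.76% in young, 60.9% against 7.58% in old), whereas Eomes in old is found in both.

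Programs were next counted cell by cell. A cell was called type 3-marked with UMIs of at least 2 of 9 genes of that program (among them Il23r, Cd163l1, Blk, Ccr6, Sox13, Il17a, Il17f and Il1r1) and type 1-marked with at least 2 of 9 others (Tbx21, Eomes, Ifng, Klrd1, Gzma, Gzmb, Xcl1, Cxcr3, Il12rb2). Type 3-marked members numbered 26 of 102 in young (25.5%, 17.4 to 35.1) and 3 of 89 in old (3.37%, 0.701 to 9.54). Type 1-marked members numbered 58 in young (56.9%, 46.7 to 66.6) and 63 in old (70.8%, 60.2 to 79.9). Few cells had both marks, 2 in young and 1 in old, and 20 and 24 had neither. The mark is a range, since 8 young and 5 old cells had exactly 1 type 3 gene and 14 and 18 exactly 1 type 1 gene. With each cell thinned to 1000 UMIs, which lost no member, 12 young and 0 old cells (which allows up to 3.37% at 3 counts of the total, with an exact upper bound of 4.06%) were type 3-marked and 35 and 32 type 1-marked.

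Genes outside both sets of 9 mark genes differed between the marks in the young library, as a description of the same cells. The 24 cells with the type 3 mark alone had Maf in 21 cells (614 CPM) against 15 of the 56 cells with the type 1 mark alone (85.7 CPM). They had Il7r in 20 cells (401 CPM) against 12 of 56 (64.9 CPM), and Cxcr6 in 22 (619 CPM) against 29 of 56 (199 CPM). Cd27 was found in 3 of 24 against 24 of 56, and Fcer1g, an adaptor of NK receptors, in 0 of 24 (which allows up to 12.5%, exact upper bound 14.2%) against 25 of 56. Against the type 1-marked cells, the type 3-marked cells were therefore Cd27-poor and Il7r-rich, and the NK adaptor lay among the type 1-marked. Young cells with neither mark had Il7r in 12 of 20 cells (378 CPM) and Cxcr6 in 13 of 20 (329 CPM). Cd27 was in 4 of 20 of them (96.8 CPM) and Maf in 9 of 20 (184 CPM). The Il7r level thus did not set the type 3-marked cells apart from those with neither mark.

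Receptor genes also differed between them. With the type 3 mark alone, Tcrg-C1 was found in 12 of 24 cells, Tcrg-C4 in 18 and Tcrg-C2 in 6. With the type 1 mark alone, Tcrg-C1 was found in 16 of 56 cells, Tcrg-C4 in 25 and Tcrg-C2 in 29. Trdv4 was found in 7 of 24 against 2 of 56 and Trgv2 in 1 of 24 against 13 of 56. As levels, Tcrg-C1 stood at 170 CPM with the type 3 mark and 64.9 CPM with the type 1 mark, and Tcrg-C2 at 75.6 and 153 CPM, whereas the intervals of Tcrg-C4 overlapped (198 CPM, 143 to 268, and 167 CPM, 131 to 210) and cells with neither mark had 271 CPM. The type 3-marked cells were deeper, with a median of 6608 UMIs against 4426, and the split of UMIs between Tcrg-C1 and Tcrg-C2 is uncertain because of their likeness.

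The split by gamma constant gene shows the same cells from the other side. Cd163l1 was found in 10 of 29 young cells with Tcrg-C1 (34.5%, 17.9 to 54.3), in 11 of 26 with Tcrg-C4 only (42.3%, 23.4 to 63.1) and in 0 of 23 with Tcrg-C2 but not Tcrg-C1 (which allows up to 13.0%, exact upper bound 14.8%). Blk was found in 10, 2 and 0 of these cells. Ifng ran differently, in 11 of 29, 8 of 26 and 12 of 23 cells (133, 161 and 371 CPM). Of the 22 young cells with Cd163l1, 12 had Blk, 2 Il17a and 1 Ifng. Of the 40 old cells with none of the gamma constant genes, 30 had Eomes, 19 Trac and 13 Gzma, so this class held most of the old members' Eomes-positive cells.

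The type 2 and repair list had few counts. Of its 12 genes 5 had enough counts, 1 was at least 2-fold lower in old and none higher, with a median log2 ratio of −0.09. Areg, which encodes the epithelial growth factor amphiregulin, stood at 95.04 and 38.3 CPM, from 7 cells at each age, but 80.8% of the young and 63.0% of the old UMIs came from 1 cell. Leaving out cells with Cd8a turned its log2 ratio from −1.31 to 1.08, so no direction is given. Gata3, a transcription factor of type 2 cells, stood at 102 and 95.1 CPM (38 and 20 cells), and Il1rl1, the IL-33 receptor, at 43.0 and 44.0 CPM (11 and 5 cells). Il13, Il5 and Il4, the type 2 cytokines, had 1, 4 and 0 UMIs in young and 10, 2 and 3 in old. Of the members with neither mark, 13 of 20 young and 5 of 24 old had Gata3, and 8 and 5 had Il1rl1.

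The checkpoint and costimulation list had 6 of 17 genes with enough counts, of which 2 were higher in old and none lower, with a median log2 ratio of 0.04. Tox, a factor of persistently stimulated T cells, stood at 32.5 CPM in young (19 cells) and 124 CPM in old (36 cells), a log2 ratio of 1.92 (1.27 to 2.63). Cd28, the main costimulatory receptor, stood at 95.04 and 244 CPM, a log2 ratio of 1.36. Lag3, an inhibitory receptor with a mean below 50 CPM, had 2 UMIs in 1 young cell and 68 UMIs in 32 old cells (96.5 CPM), a log2 ratio of 5.21 (3.30 to 8.29). Pdcd1, which encodes PD-1, was found in 16 and 14 cells. Lag3 stood at 3.66 CPM in young and 194 CPM in old CD3+ coreceptor-negative cells without Trdc, so the same contrast was seen there.

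Traffic genes differed in both directions. Of 23 residency and traffic genes 14 had enough counts, 4 were higher and 2 lower in old, with a median log2 ratio of 0.24. Klf2, a transcription factor that maintains egress receptors, stood at 424 CPM (60 cells) and 978 CPM (76 cells), with an interval of the log2 ratio of 1.01 to 1.40. S1pr1, the egress receptor and a target of Klf2, was found in 5 and 27 cells (16.9 and 76.7 CPM), a log2 ratio of 2.18 (1.29 to 3.18). Both genes of recirculating cells were higher in old, while Cxcr6 and the monocyte chemokine receptor Ccr2 (148 and 56.8 CPM, 38 and 13 cells) were lower. Cd69, which opposes S1pr1 and marks resident or stimulated cells, stood at 444 and 517 CPM (73 and 70 cells), so it did not follow Cxcr6.

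Genes of Fas-mediated death were looked at because both groups carry the Fas mutation. Fas had 3 UMIs in 3 young cells and 10 UMIs in 9 old cells, and Fasl, its ligand, stood at 93.7 CPM (36 cells) and 112 CPM (48 cells), a log2 ratio of 0.26 (−0.22 to 0.74). Of 13 genes 9 had enough counts, 2 were higher and none lower in old, with a median log2 ratio of 0.42. Among the higher genes was the survival gene Bcl2, at 182 and 375 CPM (55 and 54 cells).

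Few proliferation, interferon and stimulation genes differed 2-fold between the ages. None of the 4 cell cycle genes with enough counts differed 2-fold, and Mki67 was found in 4 young and 2 old cells, with 86.0% and 98.3% of its UMIs in 1 cell. None of the 4 type I interferon genes with enough counts differed 2-fold, though their median log2 ratio was 0.62. Of 13 immediate early and heat shock genes, which handling can induce, none was higher and 2 were lower in old, Egr1 at 281 and 132 CPM and Atf3 at 168 and 65.3 CPM. Fos stood at 1478 and 1259 CPM, so handling genes as a list did not lean to either age (median log2 ratio −0.11).

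The genes with the widest contrast, ranked by the interval bound nearest 0, were then listed without regard to the programs. At the old end stood Gm8369 (6.51 and 240 CPM), the B and T cell factor gene Pou2f2 (10.4 and 239 CPM), the immunoglobulin light chain gene Igkc, the progenitor factor gene Myb (7.81 and 186 CPM), Rgs16, a regulator of G protein signalling (7.81 and 155 CPM), and Slamf6, a SLAM family receptor (18.2 and 156 CPM), together with Gzmb, Trac and Prf1. Igkc stood at 6.51 and 176 CPM but at 8.996 and 1825 CPM in proximal tubule cells, so its contrast was also present in cells that do not make it. Gm8369 stood at 61.0 and 513 CPM and Pou2f2 at 49.1 and 442 CPM in CD3+ coreceptor-negative cells without Trdc, and Myb at 6.71 and 286 CPM. Cells with Cd4 had 255 and 396 CPM of Gm8369 and cells with Cd8b1 156 and 262 CPM. These coreceptor-negative cells therefore showed the contrasts too, and what share was particular to the members was not tested.

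At the young end stood 4 lymphocyte genes and 6 found in tubule cells. The lymphocyte genes were Cd163l1, Actn2, Ltb4r1 and Krt83, a keratin gene, at 169 and 19.9 CPM (30 and 6 cells). Kap, the kidney androgen-regulated protein gene of the proximal tubule, stood at 25933 and 5582 CPM in members and at 49256 and 38388 CPM in tubule cells. The others were Cyr61, Aadat, Pank1, Acadm and Dnase1. Summed over 5 proximal tubule markers, members held 28925 CPM in young and 6874 CPM in old, so tubule RNA took a larger part of the young members' UMIs. Much of it lay in single cells, since 1 cell held 57.5% of the Kap UMIs in young and 1 cell 54.5% in old, and 1 young cell each held 81.2% of those of Aadat, 68.2% of Acadm and 52.7% of Pank1. Its part in the ratios of other genes was not tested. A total without Malat1, globin, mitochondrial and ribosomal protein transcripts moved the log2 ratios of Tcrg-C1 and Ifng by less than their intervals. That total still held the tubule transcripts, so it says nothing about their part.

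The members were set beside the other CD3+ cells of each library. CD3+ coreceptor-negative cells without Trdc numbered 466 in young and 1900 in old, CD3+ cells with Cd4 148 and 1258, and CD3+ cells with Cd8b1 165 and 1115. Since the rule itself drew this contrast, the values are a description. Of 3256 genes in young, 57 (1.75%) were at least 2-fold higher and 64 (1.97%) at least 2-fold lower in members than in the CD3+ coreceptor-negative cells without Trdc. Of 3334 genes in old, 78 (2.34%) were higher and 93 (2.79%) lower. The comparators were not alike, since 216 of 466 young but 47 of 1900 old cells held ILC2 genes and 189 (40.6%) and 1607 (84.6%) held Trac.

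The gamma constant genes were higher in members in both libraries. Tcrg-C1 stood at 11.0 CPM in young and 1.76 CPM in old comparator cells, log2 ratios of 2.95 and 5.39 for members over comparators. Tcrg-C2 stood at 24.1 and 18.1 CPM there, log2 ratios of 2.39 and 2.97, and at 125 CPM in old cells with Cd8b1, close to the members' 142 CPM. Tcrg-C4 stood at 70.5 and 11.4 CPM there, log2 ratios of 1.42 and 3.97. Cd8b1 cells of the old library had Tcrg-C1 or Tcrg-C2 in 29.6%, so these genes alone did not mark gamma-delta T cells there.

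Ifng was found in all sets of CD3+ cells. It stood at 76.0 CPM in young comparators, a log2 ratio of 1.29, and at 167 CPM in old, one of −0.15. Cells with Cd4 had 109 and 355 CPM and cells with Cd8b1 245 and 506 CPM. Members held 16.6% of the Ifng UMIs of CD3+ cells in young and 1.03% in old, where they were 102 of 890 and 89 of 4450 CD3+ cells. With comparators that had a Trac UMI, the young log2 ratio was 0.47.

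The type 1 and cytotoxic list was the one with most genes above the comparators. In young, 15 of 19 genes with enough counts were at least 2-fold higher and none lower (median log2 ratio 1.29, against 0.076 over all genes), and in old 15 of 23 were higher and 1, Gzmk, lower (median 1.47, against 0.020). Klrd1, the CD94 subunit, had log2 ratios of 1.67 and 2.75, Klrc1, its NKG2A partner, 2.62 and 1.71, and Klrc2, its NKG2C partner, 1.98 and 1.75. Klrk1, which encodes the activating receptor NKG2D, had 1.63 and 2.46, and Ncr1 1.73 and 5.10. Cd7, a surface protein of T and NK cells, led the order that took both libraries together (480 and 600 CPM in members, 91.6 and 44.1 CPM in comparators). In young members with Tcrg-C1 or Tcrg-C2, Ncr1 lay below the comparators with a log2 ratio of −0.37, Gzma with −1.59 and Gzmb with −0.10. In old, leaving out cells with Ncr1 or Klrb1c turned Gzma, Prf1 and Ccl3 below the comparators. Among old members with Tcrg-C1 or Tcrg-C2, Prf1 and Ccl3 also lay below them. Not all genes of the list were recomputed in this way.

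Other lists were not alike in both libraries. Type 3 genes were higher in 3 of 13 in young (Cd163l1, Actn2, Il18r1) and in 5 of 8 in old (Rora, Sox4, Il7r, Cxcr6, Il18r1), and none was lower. Il18r1, the IL-18 receptor, was higher in both, with log2 ratios of 2.12 and 1.69. Type 2 genes were lower in 5 of 7 in young (Gata3, Il1rl1, Il2ra, Areg, Csf2), with a median log2 ratio of −1.40, where the comparators held many cells with ILC2 genes, and none of 3 lay beyond 2-fold in old. The receptor list had 3 higher and 1 lower of 5 genes in young and 2 and 1 of 5 in old. Checkpoint genes had 1 higher of 5 in young (Cd160), and 1 higher (Ikzf2) and 2 lower (Lag3, Ctla4) of 8 in old. Residency genes had none of 11 and 2 higher (Cxcr6, Rgs1) and 1 lower (Ccr7) of 15, and Fas and death genes 1 higher of 6 (Fasl) and 2 of 9 (Bcl2, Bcl2l11). Cell cycle genes were higher in 2 of 3 in both, though from few cells, 1 of 4 interferon genes (Ifi27l2a) was lower in both, and of 15 immediate early and heat shock genes none and 2 (Hspa1a, Hspa1b) were lower.

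Genes lower in members were mainly those of other leukocytes. The neutrophil genes S100a8, S100a9 and Lcn2 had 0, 1 and 0 UMIs in young members and 2, 4 and 0 in old, against 1294, 2157 and 132 CPM in young and 1308, 1681 and 136 CPM in old comparators. The myeloid gene Lyz2 had 3 and 30 UMIs in members, and the class II genes H2-Ab1, H2-Aa and Cd74 and the genes Apoe, Ifitm3 and Trac were also lower. Few comparators carried S100a8 (18 of 466 young, 3.86%, and 49 of 1900 old, 2.58%), and comparators with Trac stood at 60.0 and 80.8 CPM. Of markers of other cells in the members, the summed neutrophil level was 3.91 and 9.94 CPM, that of macrophages 6.51 and 53.9 CPM and that of B cells 19.5 and 7.10 CPM, with Cd79a at 0 in both.

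**Figure D5:**
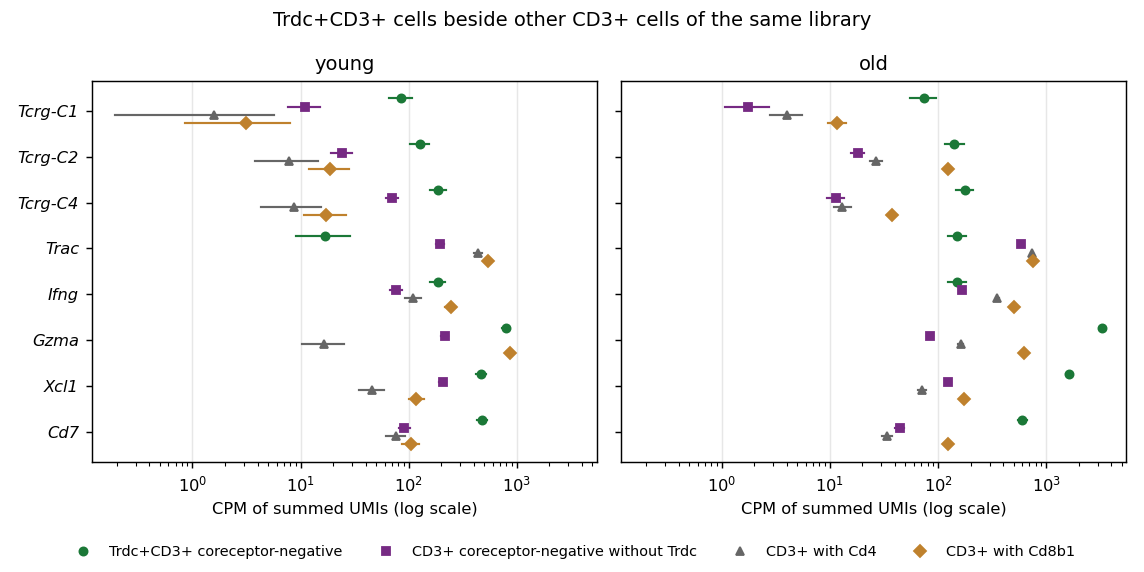
CPM with exact 95% Poisson intervals of 8 genes per library, on a log axis. The sets are Trdc+CD3+ cells, CD3+ coreceptor-negative cells without Trdc, and CD3+ cells with Cd4 or with Cd8b1. Tcrg-C1 is highest in Trdc+CD3+ cells in both libraries (84.6 and 73.8 CPM), Trac is lowest there (16.9 and 150 CPM), and Ifng in old is highest in cells with Cd8b1 (506 CPM).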

How the data were processed

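Single-cell RNA sequencing covered 2 libraries, 1 per age. The authors deposited filtered matrices of UMI counts per gene (31053 genes) and barcode, made with Cell Ranger (3.1.0 per the file headers, 3 per the submitters' processing notes) against mm10, with no normalization; aligner settings are not given in the sources used here. Groups came from the age label.

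Here, barcodes were filtered and members found by the rule given in the report, and the members and gene lists were chosen with earlier results of these data known. UMI counts were summed over cells per library and set, scaled to CPM and given with exact 95% intervals. With 1 library per age no test across samples exists, so no p-value is given. Ratios were read among genes with a mean of at least 50 CPM in the groups compared, leaving out the genes of the rule, and 2-fold was the limit for counts of genes. Named genes were those of the fixed lists and, per comparison, the 10 at each end ranked by the interval bound nearest 0, among genes with UMIs in at least 10 members, without mitochondrial, ribosomal protein and sex-linked genes. Some genes that entered list counts, cell marks or rankings are not reported here by name. Symbols Cd244a and Znf683 of the lists were not matched. Doublets were called with Scrublet in Scanpy 1.11.5 and kept unless stated. The calculation of ratios and intervals was tested on simulated data. Python 3.11.15, NumPy 2.4.6, SciPy 1.17.1, pandas 2.3.3 and Matplotlib 3.10.9 were used. Depth was 145647185 and 119218130 UMIs in young and old cells kept, and members held 768098 and 704438, so 1 UMI is worth about 1.30 and 1.42 CPM. Alternatives changed the rule, the depth, the filters and the totals. Leaving out cells with Ncr1 or Klrb1c, asking for Tcrg-C1 or Tcrg-C2, and using comparators with Trac were added after seeing the data.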

Additional observations from a re-analysis of the deposited data

Results flagged for a closer look

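For 12 of 181 list genes the difference between Trdc+CD3+ cells and CD3+ coreceptor-negative cells without Trdc pointed in opposite directions in the 2 libraries, with both 95% counting intervals off 0 and at least 1 ratio past 2-fold. With 1 library per age the difference between them was not tested. The values are log2 ratios of members over comparators, young first. Genes of type 2 cells made up the largest group, with Areg at −1.40 and 0.67, Csf2 at −1.84 and 2.55, Gata3 at −1.87 and 0.84, Il13 at −4.94 and 2.87, Il1rl1 at −1.78 and 2.47, and Il2ra at −1.02 and 1.53. Receptor and tissue genes were Il7r at −0.70 and 1.27, Ramp1 at −0.47 and 1.08, Rgs1 at −0.17 and 1.26, and Rora at −0.35 and 1.77. The reverse order was seen for Eomes, at 2.14 and −0.80, and Trbc1, at 1.06 and −0.27.

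Cells with ILC2 genes made up 216 of 466 comparators in young and 47 of 1900 in old, and 17 of 102 members in young and 6 of 89 in old. With comparators that had a Trac UMI, the young ratios became 1.29 for Areg, 1.43 for Csf2, 0.88 for Il1rl1 and 0.94 for Il2ra. Those of Il7r, Ramp1, Rgs1 and Rora became 0.06, 0.44, 0.43 and 1.13. All of these ratios then lay above 0 in both libraries. Most Areg UMIs of the members came from 1 cell at each age, so no direction is given for Areg. Il13 had 1 UMI in 1 young member and 10 UMIs in 2 old members. Il7r, Gata3 and Il13 had young intervals that held 0. The ratios of Gata3 (−0.22 and 1.05), Il13 (−1.93 and 3.19), Eomes (1.59 and −0.93) and Trbc1 (0.42 and −0.36) had opposite signs, which for Gata3 and Il13 the young interval does not settle.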

How the results depend on the processing

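Of 1504 recomputed values of 95 results, 1088 stayed within counting error or 1.5 times, 401 moved and 15 turned direction. No paired analysis was possible because each age is 1 library and no test was made. Asking for Tcrg-C1 or Tcrg-C2 left 52 young and 35 old members, any gamma constant gene left 49 old members and 0 UMIs of Trac left 45. For old over young, the log2 ratio of Ifng became 0.066 without Trac, 0.29 without Ncr1 and Klrb1c and −0.80 with cells thinned to 1000 UMIs. Those of Tcrg-C1 and Tcrg-C2 became −1.21 and −0.51 as means over cells, and Tcrg-C2 became −0.43 when thinned. That of Gzma turned to −1.99 without Ncr1 and Klrb1c, and that of Areg to 1.08 without Cd8a, 1.28 without Ncr1 and Klrb1c and 0.46 within Xist cells.

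Over comparators in young, Ifng became 0.91 with at least 3 CD3 UMIs. With comparators carrying Trac, Ifng, Tcrg-C1 and Tcrg-C2 became 0.47, 2.20 and 1.62. Among members with Tcrg-C1 or Tcrg-C2, these 2 genes became 3.78 and 3.22 by construction, and Gzma, Gzmb and Ncr1 turned to −1.59, −0.10 and −0.37. Thinned, Tcrg-C1 became 1.95. Within Xist cells, Gzmb, Prf1 and Cd160 turned to −1.03, −0.44 and −0.10.

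Over comparators in old, Ifng became 0.14 without Trac and −0.57 within Xist cells. Tcrg-C1 became 6.44 with Tcrg-C1 or Tcrg-C2, 4.602 as a mean over cells and 3.90 thinned. Tcrg-C2 became 3.62 with any gamma constant, 3.69 without Cd8a, 4.02 with Tcrg-C1 or Tcrg-C2 and 2.45 thinned. Without Ncr1 and Klrb1c, Gzma, Prf1 and Ccl3 turned to −2.19, −0.30 and −0.047, and with Tcrg-C1 or Tcrg-C2 Prf1 and Ccl3 turned to −0.26 and −0.36.

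Genes at least 2-fold higher in old numbered 227 and lower 403 without Ncr1 and Klrb1c, 369 and 390 thinned, 340 and 528 at a mean of 20 CPM, and 1316 and 1523 with no filter beyond 3 UMIs. A total without Malat1, globin, mitochondrial and ribosomal protein transcripts gave 210 higher. Type 3-marked members became 13 (Tcrg-C1 or Tcrg-C2) and 12 (thinned) in young, and 1 (without Trac) and 0 (thinned) in old. Type 1-marked members in young became 33 without Ncr1 and Klrb1c, 33 with Tcrg-C1 or Tcrg-C2 and 35 thinned. In old they became 37 with any gamma constant, 32 without Trac, 41 without Ncr1 and Klrb1c, 29 with Tcrg-C1 or Tcrg-C2 and 32 thinned. These selections hold fewer cells, and beyond that the cause was not tested. With 102 and 89 cells at a median of 5220 and 5915 UMIs, a gene absent from 1 age cannot be told from one below the floor of 3 UMIs.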
